A study of Gossypium hirsutum with 18 samples.

Results

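Expansin and lipid-transfer protein genes lie close to each other on chromosomes D10 and A10 of upland cotton (Gossypium hirsutum), and the transcripts of 6 of them were followed in ovules of a fiberless mutant and its fiber-bearing parent. The 6 genes were taken by identifier from 3 deposited tables of genotype differences, out of 11153 genes listed in at least 1 table. They are the expansins Gh_D10G123800 and Gh_A10G149600 and the lipid-transfer genes Gh_D10G123300, Gh_D10G123600, Gh_A10G149700 and Gh_A10G150000. Ovules of the mutant Xu142fl at -1, 0 and 1 day post-anthesis (DPA, counted from flower opening) formed 3 groups, and ovules of Xu142 on the same days formed the other 3. Each group had 3 libraries, 18 in all, of total RNA, and the labels record no treatment. As background, Xu142fl is a natural mutant of Xu142 that is fuzzless and lintless, so that its seeds bear no fibers, and the days chosen are those on which fiber cells begin to bulge from the ovule epidermis. The labels do not say whether replicates came from separate plants, so the spread between them may be technical.

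Alpha-expansins are secreted wall proteins that loosen the contacts between cellulose microfibrils and the matrix around them, which lets a wall under turgor extend. Non-specific lipid-transfer proteins are small secreted proteins that bind lipids in a hydrophobic pocket and are known from epidermal cells, where they are linked to cuticle and wax deposition. Both kinds of protein are long known from cotton fibers, single epidermal cells of the seed coat that elongate at an unusual rate. Upland cotton is an allotetraploid with an A and a D subgenome, so that most genes exist as an A and a D copy.

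On both chromosomes the expansin lay at an end of the cluster, with the lipid-transfer genes on the opposite strand. On D10 the authors' tables place the lipid-transfer gene Gh_D10G123300 at 19082988 to 19083717 (minus strand), the lipid-transfer gene Gh_D10G123600 at 19123767 to 19124233 (minus strand) and the expansin Gh_D10G123800 at 19208807 to 19210097 (plus strand), all on the authors' own build, which is not given in the sources used here. On A10 the expansin Gh_A10G149600 lies at 83948169 to 83949465 (minus strand), the lipid-transfer gene Gh_A10G149700 at 84012081 to 84012990 (plus strand) and the lipid-transfer gene Gh_A10G150000 at 84311440 to 84312162 (plus strand). By protein family and strand the A10 copy is therefore the mirror image of the D10 copy, with every strand turned. In both, the expansin points away from the lipid-transfer genes. The lipid-transfer gene next to the expansin is called the inner one below, and the one at the far end the outer one. These names rest on position, so the order of inner and outer genes is the same on both chromosomes by definition. Between expansin and inner gene lay 84.6 kb on D10 and 62.6 kb on A10, and between inner and outer gene 40.0 kb on D10 and 298 kb on A10. The whole stretch measured 127 kb on D10 and 364 kb on A10.

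**Figure D1:**
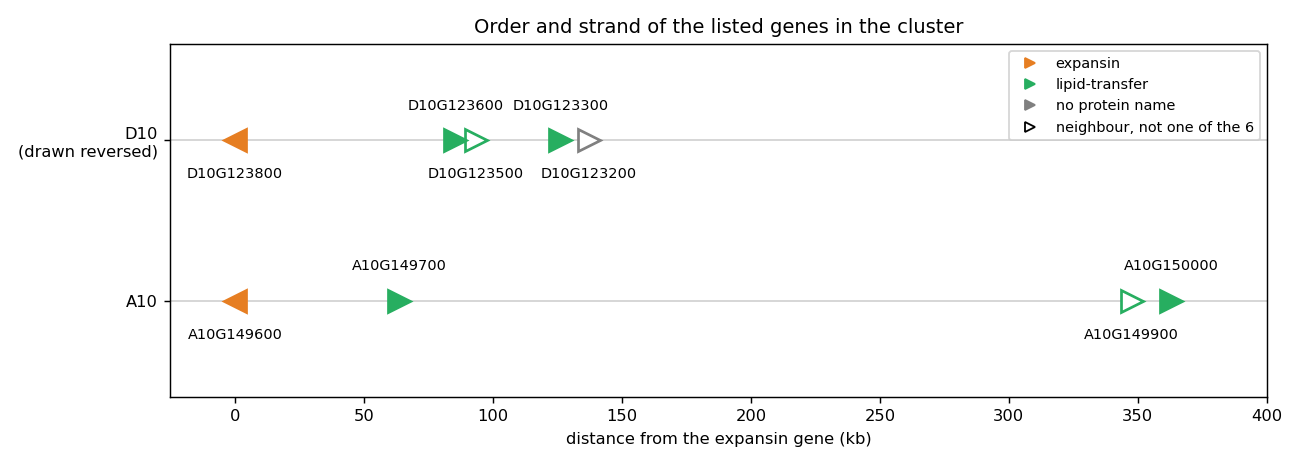
Order and strand of the listed genes, with distance from the expansin gene in kb on the x axis and D10 drawn reversed. Arrowheads give the strand, filled marks are the 6 genes and open marks are neighbours listed at 1 DPA. Counted over the genes themselves, the stretch from expansin to outer gene spans 364 kb on A10 and 127 kb on D10.

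Protein names in the tables are those of the best Swiss-Prot match. Gh_D10G123800 matched Expansin-A8 of Arabidopsis and Gh_A10G149600 Expansin-A4 of rice, so the copies carry different names although their deposited lengths are 1139 and 1138 bases. Both outer genes, of 650 bases on D10 and 643 bases on A10, and the inner D10 gene, of 467 bases, matched the same entry, a non-specific lipid-transfer protein also called GH3. The inner A10 gene, of 774 bases, matched non-specific lipid-transfer protein 6. Of the 6 identifiers, 0 matched an identifier in the RefSeq annotation. In RefSeq's own annotation (Gossypium_hirsutum_v2.1) A10 also carries an expansin with the synonym EXPA1A and a lipid-transfer gene with the synonym FSLTP3, with 10 annotated genes between them, and D10 an expansin with the synonym EXPA1D. Which of the 6 identifiers these are was not established. A and D copies are paired here by order, strand and protein family alone.

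Values are normalised reads, the authors' reads per gene divided by 1 factor per library, and every listed value was a whole multiple of 1 step per library. That step, the value of 1 read, ran from 0.567 to 1.36 normalised reads. A library at -1 DPA held 210953 to 257804 recovered reads of listed genes, a library at 0 DPA 130502 to 346187, and a library at 1 DPA 2833696 to 6388114. These sums leave out every gene not listed and are not library depths. The tables hold called genes only, with a deposited adjusted p under 0.05 and a deposited log2 fold change of at least 1 in size. Of the genes tested by the authors, 1.5% were called at -1 DPA, 2.38% at 0 DPA and 17.6% at 1 DPA, and 0.676%, 1.51% and 11.9% were called as lower in Xu142fl. How far the counting told A from D reads is not stated, so values of near-identical copies are uncertain.

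The 6 genes were chosen from these calls, so their differences between genotypes are given as a description, without a test. At -1 DPA 3 of the 6 were listed, at 0 DPA 5 and at 1 DPA 6, which made 14 of 18 possible entries, and 2 genes were listed on all 3 days. All 14 entries were lower in Xu142fl. In all 14, every Xu142fl library also lay below every Xu142 library, as the choice of called genes largely fixed: among all listed genes the groups did not overlap in 100%, 99.4% and 97.6% at -1, 0 and 1 DPA, and 45.1%, 63.3% and 66.3% did so with Xu142fl lower. The median log2 ratio of Xu142fl over Xu142 was -1.34 over the 3 genes at -1 DPA, -3.68 over the 5 at 0 DPA and -8.70 over the 6 at 1 DPA. Over all listed genes it was 1.30, -1.77 and -1.31 on these days. Over the genes listed as lower in Xu142fl, as all these entries were, it was -1.97, -2.92 and -1.72. The members' median at -1 DPA was thus smaller in size than that of the genes listed as lower. The entry closest to the authors' limits was Gh_A10G150000 at 0 DPA, with a log2 fold change of 1.06 (Xu142 over Xu142fl) and an adjusted p of 0.00431 in the authors' deposited table. Deposited fold changes are smaller in size than the ratios of group means given here, by 0.036 to 4.17 on the log2 scale over the 14 entries and by 2.31 for that one, and how they were computed is not given in the sources used here. Genes just outside the limits are not in the tables.

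The expansins showed the widest difference. At 0 DPA Gh_D10G123800 had 107, 83.3 and 31.3 normalised reads in the Xu142fl libraries, against 2093, 2031 and 1315 in the Xu142 libraries. Gh_A10G149600 had 85.3, 58.3 and 22.5 in Xu142fl, against 1783, 1597 and 965 in Xu142. Both copies were thus present in every Xu142fl library at flower opening, at 4.07% and 3.82% of the Xu142 mean, and replicate 3 was the lowest library in both genotypes. The log2 ratios were -4.62 ± 0.48 (SE, n = 3 per genotype) for Gh_D10G123800 and -4.71 ± 0.53 for Gh_A10G149600. Neither expansin was listed at -1 DPA, where a gene that did not differ and one too low to call look the same.

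At 1 DPA the expansins were close to absent from Xu142fl. Gh_D10G123800 had 0, 0 and 1.70 normalised reads in Xu142fl, against 11319, 28784 and 20415 in Xu142. Those are 0, 0 and 3 reads, and in the libraries with no read a count of 0 allows up to 3.01 and 3.07 normalised reads. Gh_A10G149600 had 1.00, 1.02 and 1.13 normalised reads in Xu142fl, which are 1, 1 and 2 reads, against 11444, 29157 and 20527 in Xu142. Pooled over libraries, the read rate of Gh_D10G123800 in Xu142 was 24119 times that in Xu142fl (95% counting interval, 8252 to 116957), from 3 reads in Xu142fl and 49496 in Xu142. For Gh_A10G149600 it was 18268 times (7135 to 67051), from 4 reads in Xu142fl and 49987 in Xu142. The authors' deposited table gives smaller log2 fold changes (Xu142 over Xu142fl), 10.94 for Gh_D10G123800 and 11.30 for Gh_A10G149600, with the copies in the opposite order. Intervals of this kind cover counting error only, and the ratios here run Xu142 over Xu142fl. In bulk ovules, fewer cells that express a gene and less RNA per cell cannot be told apart, which holds for all results given here.

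**Figure D2:**
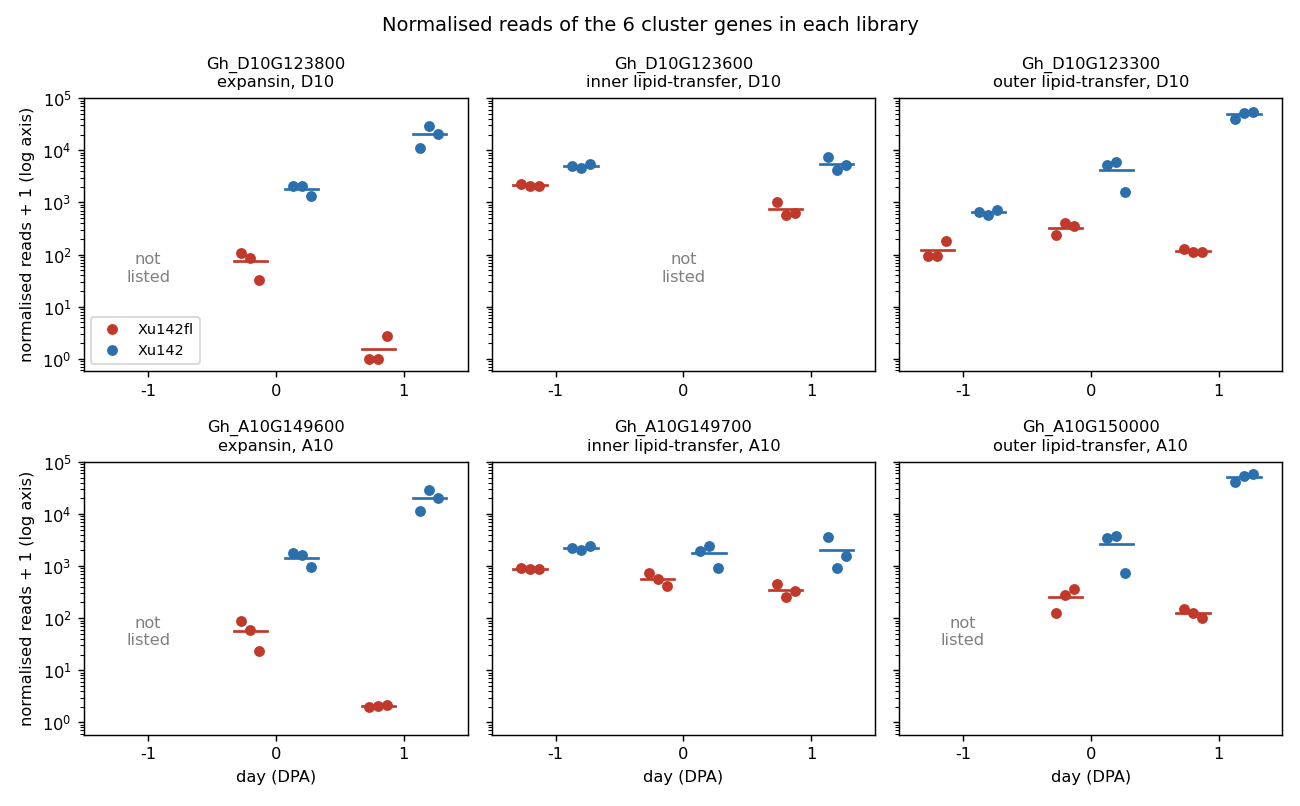
Normalised reads + 1 of the 6 genes on a log axis, by day, with Xu142fl left of Xu142. Points are single libraries and bars are the means of the plotted values. At 1 DPA the Xu142 libraries of the expansins lie at 11319 or more and those of the outer pair at 40673 or more, and the inner pair lies between 255 and 7394 over both genotypes.

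The outer lipid-transfer pair also differed most at 1 DPA, but each Xu142fl library still held from 101 to 149.5 normalised reads of either gene on that day. Gh_D10G123300 had 92.8, 91.5 and 179 normalised reads in Xu142fl at -1 DPA, against 651, 564 and 718 in Xu142. At 0 DPA it had 234, 398 and 351 in Xu142fl, against 5125, 5874 and 1582 in Xu142. By 1 DPA it stood at 126, 109.7 and 110.1 in Xu142fl, against 40673, 52136 and 54526 in Xu142. Within each day the Xu142fl libraries lay below the Xu142 libraries, and the gap was widest at 1 DPA. The log2 ratio was -2.41 ± 0.36 at -1 DPA, -3.68 ± 0.50 at 0 DPA and -8.73 ± 0.14 at 1 DPA (SE, n = 3 per genotype).

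Its A10 counterpart Gh_A10G150000 was listed from 0 DPA on. It had 122, 279 and 368 normalised reads in Xu142fl at 0 DPA, against 3514, 3724 and 728 in Xu142, a log2 ratio of -3.37 ± 0.66. Xu142 replicate 3 stood far under the other 2 Xu142 libraries, though above all of Xu142fl. The call of this gene at 0 DPA ended in 7 of 13 refits of the recovered reads. Of all listed genes, edgeR's quasi-likelihood test on those reads called 100% at -1 DPA, 83.7% at 0 DPA and 93.9% at 1 DPA. With edgeR's quasi-likelihood test the Benjamini-Hochberg adjusted p of Gh_A10G150000 at 0 DPA was 0.0121 over all libraries and 0.0665 with a replicate block. It was 0.0980 without Xu142fl replicate 2, 0.0771 without Xu142 replicate 2 and 0.157 with TMM factors from the listed genes. DESeq2 with its own size factors gave 0.517, and limma with pseudocounts of 1 and 0.1 gave 0.0567 and 0.179. At 1 DPA Gh_A10G150000 had 149.5, 125 and 101 normalised reads in Xu142fl, against 41445, 52909 and 58546 in Xu142. The log2 ratio was -8.67 ± 0.21.

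The inner lipid-transfer pair behaved otherwise. Gh_D10G123600 was already abundant at -1 DPA, with 2277, 2065 and 2030.5 normalised reads in Xu142fl, against 4932, 4528 and 5459.6 in Xu142, a log2 ratio of -1.23 ± 0.09. On the last day, 1 DPA, it had 1017, 569 and 633 in Xu142fl, against 7394, 4136 and 5133 in Xu142, a log2 ratio of -2.91 ± 0.37. It was not listed at 0 DPA. Per kb of gene it stood at 4548 normalised reads in Xu142fl and 10649 in Xu142 at -1 DPA, against 186 in Xu142fl and 991 in Xu142 for the outer gene Gh_D10G123300, 40.0 kb away.

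Gh_A10G149700, the inner gene of A10, was listed on all 3 days. At -1 DPA it had 908, 872 and 889 normalised reads in Xu142fl, against 2246, 2066 and 2423 in Xu142. At 0 DPA it had 737, 571 and 416 in Xu142fl, against 1958, 2377 and 926 in Xu142. At 1 DPA it had 448, 255 and 330.2 in Xu142fl, against 3655, 910.0 and 1587 in Xu142. Its Xu142 libraries at 1 DPA differed 4.02-fold among themselves, the widest spread of the 6 genes on that day, and all lay above Xu142fl. The log2 ratio was -1.34 ± 0.07 at -1 DPA, -1.61 ± 0.42 at 0 DPA and -2.57 ± 0.63 at 1 DPA, and -1.86 at 1 DPA without Xu142 replicate 1. Its call at 0 DPA ended in 10 of 13 refits, with a Benjamini-Hochberg adjusted p of 0.0577 in edgeR's quasi-likelihood test on the recovered reads, and 0.0149 with a replicate block. With DESeq2 size factors computed from the listed genes, its log2 ratio at 0 DPA was -0.01, and its call at 1 DPA also ended with those factors (DESeq2, adjusted p = 0.385) and with TMM factors (edgeR's quasi-likelihood test, adjusted p = 0.160).

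Per length, the outer pair and the expansins were among the most abundant listed transcripts of Xu142 at 1 DPA. Of 10793 listed genes, Gh_A10G150000 ranked 2 and Gh_D10G123300 ranked 4 in Xu142 by mean normalised reads per kb, at 79264 and 75556. The expansins ranked 26 (Gh_A10G149600, 17905 normalised reads per kb) and 27 (Gh_D10G123800, 17710), an order their SDs do not separate. Gh_D10G123600 ranked 52 at 11894 and Gh_A10G149700 ranked 596 at 2650 normalised reads per kb. In Xu142fl the inner pair was the highest and the expansins were the lowest, with Gh_D10G123600 at 1584, Gh_A10G149700 at 445, Gh_A10G150000 at 195, Gh_D10G123300 at 178, Gh_A10G149600 at 0.926 and Gh_D10G123800 at 0.498 normalised reads per kb. Together the 6 genes took 0.0365% to 0.0597% of listed reads in Xu142fl libraries at 1 DPA, against 1.87% to 2.15% in Xu142 libraries.

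Levels on different days came from tables normalised separately, so they are set side by side without a test. From 0 to 1 DPA the mean of Gh_D10G123300 in Xu142fl changed by a factor of 0.352, against 11.7 in Xu142, and that of Gh_A10G150000 by 0.488 in Xu142fl, against 19.2 in Xu142. The expansin means changed by 0.00769 (Gh_D10G123800) and 0.0190 (Gh_A10G149600) in Xu142fl, against 11.1 and 14.1 in Xu142. The inner gene Gh_A10G149700 changed by 0.599 in Xu142fl, against 1.17 in Xu142. From -1 to 1 DPA the inner gene Gh_D10G123600 changed by 0.348 in Xu142fl and 1.12 in Xu142, and Gh_A10G149700 by 0.387 in Xu142fl and 0.914 in Xu142. In Xu142 the factors from 0 to 1 DPA thus ran from 11.1 to 19.2 for the outer genes and expansins, and those ending at 1 DPA from 0.914 to 1.17 for the inner genes.

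A ratio of 2 genes within 1 library does not depend on the scaling of the tables. The outer D10 gene Gh_D10G123300 gave 0.102, 0.105 and 0.202 reads per read of the inner A10 gene Gh_A10G149700 in Xu142fl at -1 DPA, against 0.290, 0.273 and 0.296 in Xu142. At 0 DPA the ratio was 0.317, 0.697 and 0.845 in Xu142fl, against 2.62, 2.47 and 1.71 in Xu142. By 1 DPA it was 0.283, 0.430 and 0.333 in Xu142fl, against 11.1, 57.3 and 34.4 in Xu142. The 3 days did not overlap in Xu142 and were in rising order. In Xu142fl, where the ratio at 0 DPA and at 1 DPA overlapped, it stayed below 1 in all 9 libraries.

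Of the neighbours, 2 more lipid-transfer genes were listed, at 1 DPA only, and they make another pair, placed between inner and outer genes. These are Gh_D10G123500 (D10, 19115784 to 19116582, minus strand) and Gh_A10G149900 (A10, 84296111 to 84296639, plus strand), which match the same GH3 lipid-transfer entry. Gh_D10G123500 had 1533, 1085 and 1170.3 normalised reads in Xu142fl, against 12841, 15932 and 14797 in Xu142, a log2 ratio of -3.52 ± 0.18. Gh_A10G149900 had 3309, 2392 and 2499 in Xu142fl, against 15784, 20069 and 18783 in Xu142, a log2 ratio of -2.74 ± 0.18. Per kb they stood at 1757 (Gh_D10G123500) and 5167 (Gh_A10G149900) normalised reads in Xu142fl, above the 178 and 195 of the outer pair, and at 20199 and 34426 in Xu142, below the 75556 and 79264 of the outer pair. Another neighbour, Gh_D10G123200 (D10, 19072104 to 19072451), has no protein name and stood at 6.48 ± 5.03 normalised reads in Xu142fl and 21.4 ± 1.19 in Xu142 (SD, n = 3 each). No other listed gene started between the outermost genes or within 100 kb of them on either chromosome, and the nearest ones beyond were 233 kb away on D10 and 456 kb away on A10.

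The comparison of subgenomes used the A10 share, A10 reads as a percentage of A10 plus D10 reads of a pair within 1 library. For the expansins it was 44.4%, 41.2% and 41.8% in Xu142fl at 0 DPA (exact 95% binomial intervals from 28.7% to 55.9%), against 46.0%, 44.0% and 42.3% in Xu142 (40.2% to 47.6%). For 1 DPA it was 50.3%, 50.3% and 50.1% in Xu142, while 7 reads in all Xu142fl libraries gave no usable share. In Xu142 the A10 share was thus 6.13 percentage points higher at 1 DPA than at 0 DPA, and the days did not overlap (two-sided exact permutation test, p = 0.1, the smallest value that 3 against 3 libraries can give; Benjamini-Hochberg adjusted p = 0.25 over 5 shares tested).

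The outer lipid-transfer pair differed in the same direction. Its A10 share was 34.4%, 41.3% and 51.2% in Xu142fl at 0 DPA, against 40.7%, 38.8% and 31.5% in Xu142. At 1 DPA it was 54.2%, 53.3% and 47.8% in Xu142fl, against 50.5%, 50.4% and 51.8% in Xu142. In Xu142 the share at 1 DPA exceeded that at 0 DPA by 13.9 percentage points, again without overlap (two-sided exact permutation test, p = 0.1, the smallest possible; adjusted p = 0.25). This pair on its own, and the inner pair on its own, were added after the values were seen. The planned sum over lipid-transfer members listed on both days is no balanced comparison of the copies, since it sets 2 A10 genes (Gh_A10G149700 and Gh_A10G150000) against 1 D10 gene (Gh_D10G123300) and leaves out the inner D10 gene, which was not listed at 0 DPA. The A10 genes made up 51.9% of that sum at 1 DPA and 51.2% at 0 DPA in Xu142 (two-sided exact permutation test, p = 0.4; adjusted p = 0.5). With reads per base of gene length the share was 2.46 percentage points higher at 1 DPA (two-sided exact permutation test, p = 0.1, the smallest possible, not adjusted). The outcome for this sum thus depended on the measure.

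The inner pair leaned to D10 in reads not corrected for gene length, and also per kb of gene. At 1 DPA the pair had 11894 normalised reads per kb on D10 and 2650 on A10 in Xu142. In Xu142fl these were 1584 on D10 and 445 on A10. Its genes, of 467 bases on D10 and 774 bases on A10, matched different protein entries. They are paired by order, strand and family alone, and whether they are copies of each other was not established. The A10 share of the inner pair was 28.5%, 29.7% and 30.5% in Xu142fl at -1 DPA, against 31.3%, 31.3% and 30.7% in Xu142. At 1 DPA it was 30.6%, 31.0% and 34.3% in Xu142fl, against 33.1%, 18.0% and 23.6% in Xu142. Between these days Xu142 differed by -6.21 percentage points, with overlap (two-sided exact permutation test, p = 0.4; adjusted p = 0.5). The pair between inner and outer genes, of 719 bases on D10 and 529 bases on A10, was paired in the same way and leaned to A10. Its A10 share at 1 DPA was 68.3%, 68.8% and 68.1% in Xu142fl, against 55.1%, 55.7% and 55.9% in Xu142. So in Xu142 at 1 DPA the A10 share lay between 50.1% and 51.8% in the expansins and outer genes, between 18.0% and 33.1% in the inner pair and between 55.1% and 55.9% in the remaining pair. Expansin reads were 20.97%, 35.4% and 26.3% of expansin plus lipid-transfer reads in Xu142 at 1 DPA and 26.8%, 23.3% and 41.3% at 0 DPA, over the 5 genes listed on both days (two-sided exact permutation test, p = 0.6; adjusted p = 0.6).

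**Figure D3:**
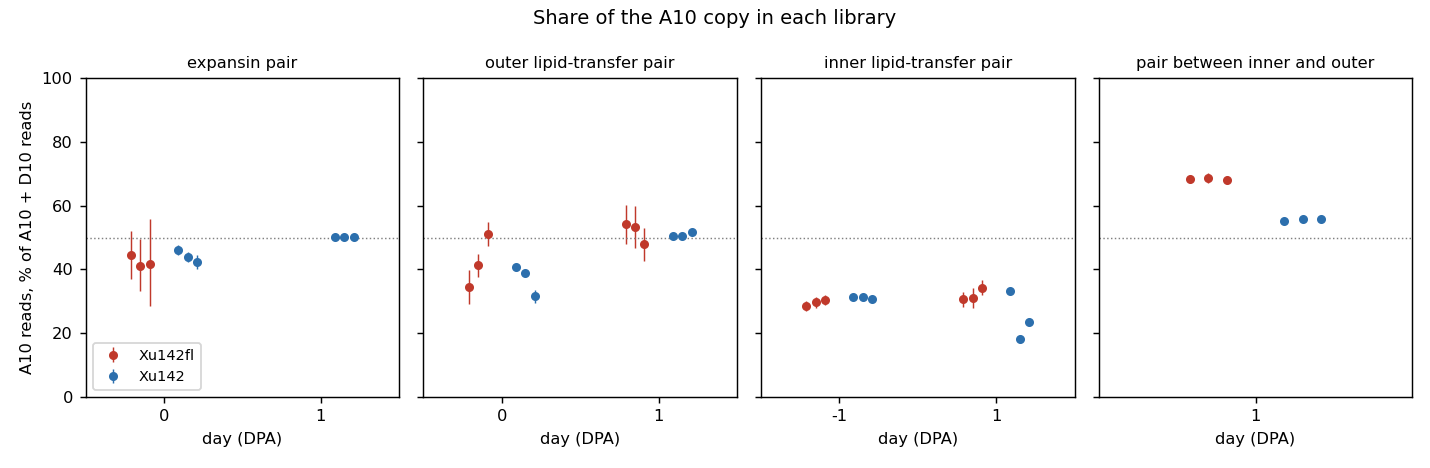
A10 reads as a percentage of A10 plus D10 reads for the 4 pairs, by day, with Xu142fl left of Xu142. Points are libraries with exact 95% binomial intervals, and the dotted line marks equal shares. In Xu142 the expansin and outer pairs lie below 50% at 0 DPA and at 50.1% to 51.8% at 1 DPA.

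The cluster genes did not all follow the same Xu142 libraries. At 0 DPA replicate 3 was the lowest Xu142 library for all 5 listed genes, at 0.725 and 0.666 times the group mean for the expansins Gh_D10G123800 and Gh_A10G149600. It was lower still for the outer genes, at 0.377 (Gh_D10G123300) and 0.274 (Gh_A10G150000) times the mean. That library was also the lowest Xu142 library for 65.9% of the 864 genes listed as lower in Xu142fl at 0 DPA. At 1 DPA replicate 1 was the lowest Xu142 library for both expansins, at 0.561 (Gh_D10G123800) and 0.562 (Gh_A10G149600) times the mean, and for both outer genes, at 0.828 (Gh_D10G123300) and 0.813 (Gh_A10G150000). The inner genes differed from them, with replicate 1 the highest at 1.33 (Gh_D10G123600) and 1.78 (Gh_A10G149700) times the mean. Of the 7288 genes listed as lower in Xu142fl at 1 DPA, 70.6% had their lowest Xu142 value in replicate 1 and 15.6% their highest there. Whether these libraries differed in ovule age or handling is not recorded in the labels.

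**Figure D4:**
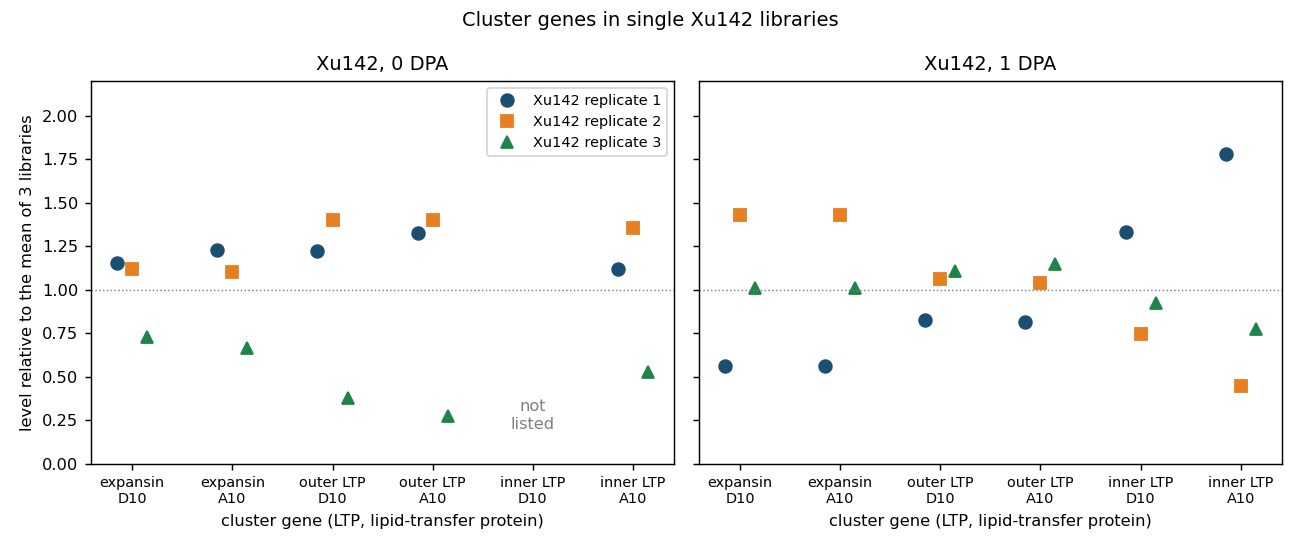
Level of each cluster gene in each Xu142 library divided by the mean of the 3 Xu142 libraries, at 0 DPA (left) and 1 DPA (right). At 1 DPA replicate 1 is lowest for the expansin and outer genes, from 0.561 to 0.828, and highest for the inner genes, at 1.33 and 1.78.

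Likeness of course was measured as Pearson's r of log2(normalised reads + 1) over the libraries of the days on which a gene was listed. It is a description only, since all points share libraries, genotype differences and tables of called genes. For both expansins, over 12 libraries and 1144 candidate genes, the other copy was the most alike, with r = 0.996. Gh_A10G149600 was followed by a probable inactive receptor kinase (Gh_D13G227000, r = 0.996) and a BI1-like protein (Gh_A08G053100, r = 0.993), and the BI1-like gene was also at rank 3 for Gh_D10G123800 (r = 0.989). The outer gene Gh_D10G123300, over 18 libraries and 525 candidates, was most like Protein ECERIFERUM 1 (Gh_A05G335100, r = 0.989), whose Arabidopsis namesake acts in wax alkane synthesis. Next came Protein E6 (Gh_A05G145000, r = 0.984), known as a fiber-rich protein of cotton, and an actin gene (Gh_D01G244100, r = 0.983).

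For the outer gene Gh_A10G150000 the most alike of 1144 candidates were the unnamed Gh_A09G143100 (r = 0.996), glutathione S-transferase U17 (Gh_A11G210000, r = 0.993) and a GPI-anchored lipid-transfer protein (Gh_D04G208200, r = 0.992), over 12 libraries. Its D10 counterpart stood at rank 4 (r = 0.992). For the inner gene Gh_D10G123600, with 699 candidates and 12 libraries, the other inner gene was at rank 3 (r = 0.963), after the unnamed Gh_D06G104800 (r = 0.968) and Gh_D03G185700 (r = 0.967). For the inner gene Gh_A10G149700, with 525 candidates and 18 libraries, the values were lower. They were 0.939 for the unnamed Gh_D05G378700, 0.934 for long chain acyl-CoA synthetase 1 (Gh_A07G138800) and 0.932 for a pre-mRNA cleavage factor subunit (Gh_A08G118800).

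Other listed genes of both families were found by text search, which for lipid transfer also takes in relatives such as glycolipid transfer proteins. Since the tables hold called genes only, the counts are not shares of a family. For comparison with the counts below, 393 of 872 listed genes were lower in Xu142fl at -1 DPA. At 0 DPA 864 of 1366 were lower, and at 1 DPA 7288 of 10793. Of 15 other expansin matches at 1 DPA, 8 were higher and 7 lower in Xu142fl, with a median log2 ratio of 1.33 beside -1.31 over all listed genes. No other expansin of the table came near the cluster pair in Xu142. The next was Expansin-like A2 (Gh_A01G192800), at 148 normalised reads per kb in Xu142fl and 476 in Xu142, then Expansin-A13 (Gh_D07G079700), at 164 in Xu142fl and 471 in Xu142. Expansin genes on the same chromosomes but outside the cluster were Expansin-A5 (Gh_D10G118100, 1134 kb away, and Gh_A10G154400, 1939.9 kb away) and Expansin-A8 (Gh_A10G183700, 16261 kb away). Of these, Gh_D10G118100 had a mean of 0.524 normalised reads in Xu142fl and 11.3 in Xu142, Gh_A10G154400 had 3.69 in Xu142fl and 40.3 in Xu142, and Gh_A10G183700 had 44.1 in Xu142fl and 16.3 in Xu142.

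Of 33 other lipid-transfer matches at 1 DPA, 7 were higher and 26 lower in Xu142fl, with a median log2 ratio of -2.74. With DESeq2 size factors computed from the table, 8 were higher and 25 lower. The most abundant in Xu142 after the outer pair was non-specific lipid-transfer protein 3 (Gh_A09G236500), at 13400 normalised reads per kb in Xu142fl and 38467 in Xu142. At 0 DPA all 7 other matches were lower in Xu142fl (median log2 ratio -1.63, beside -1.77 over all listed genes). With TMM factors from the table that median was -0.49. With DESeq2 size factors it was -0.04, and 5 of 7 were lower. At -1 DPA both other matches were lower (median -1.56). At -1 DPA 1 other expansin match was higher and 1 lower (median -0.09), and at 0 DPA none was listed besides the cluster pair.

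**Figure D5:**
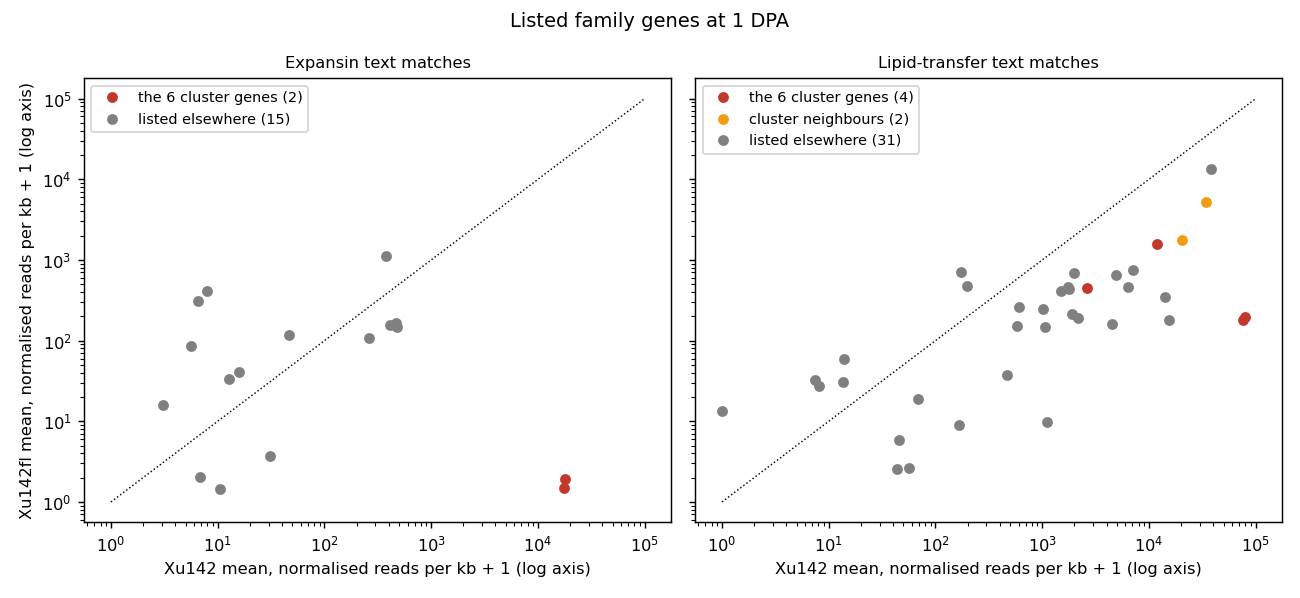
Mean normalised reads per kb + 1 in Xu142fl (y axis) and Xu142 (x axis) of each expansin match (left) and lipid-transfer match (right) listed at 1 DPA, on log axes. Points below the dotted line of equality are lower in Xu142fl. The expansin pair lies apart at the lower right, and the outer lipid-transfer pair is the rightmost, at 75556 and 79264 normalised reads per kb in Xu142.

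Xyloglucan enzymes cut and rejoin the hemicellulose that tethers cellulose, and they were searched as a second group of wall genes. At 1 DPA 4 were higher and 36 lower in Xu142fl (median log2 ratio -2.09), or 9 and 31 with TMM factors and 10 and 30 with DESeq2 size factors from the table. At 0 DPA all 4 listed were lower (median -3.80), and at -1 DPA all 4 listed were higher (median 2.04). Fiber proteins named in the tables were lower for 3 of 3 genes at 1 DPA (median -6.56) and 2 of 2 at 0 DPA (median -2.96). At -1 DPA 1 was higher and 1 lower (median -0.08), or both lower with DESeq2 size factors.

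Among genes of these 4 searches other than the 6 cluster genes, with at least 100 normalised reads in either genotype, the smallest ratios at 1 DPA belonged to xyloglucan endotransglucosylase/hydrolases. XTH6 (Gh_D12G089300) had 0.335 ± 0.579 normalised reads in Xu142fl (SD, n = 3), from 1 read in all, against 419.7 ± 165 in Xu142. XTH7 (Gh_A11G054000) had 0.524 ± 0.503 in Xu142fl, from 2 reads, against 278 ± 199 in Xu142. Pooled read rates in Xu142 were 1618 times (95% counting interval, 289.8 to 63975) and 485 times (134 to 4009.8) those in Xu142fl. The other XTH7 gene, Gh_D11G054000, had 12.4 ± 3.71 in Xu142fl against 5770.4 ± 3017 in Xu142, a log2 ratio of -8.86 ± 0.50 (SE).

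The largest ratios belonged to other genes found by the searches for the cluster's own families. Expansin-like B1 had 337 ± 80.9 normalised reads in Xu142fl (SD, n = 3) against 5.72 ± 5.85 in Xu142 for Gh_D08G185100, and 231 ± 56.6 in Xu142fl against 4.16 ± 3.69 in Xu142 for Gh_A08G188200. Their log2 ratios were 5.88 ± 0.88 and 5.79 ± 0.77 (SE). Non-specific lipid-transfer protein 2 (Gh_A03G210200) had 384 ± 61.5 in Xu142fl against 91.7 ± 58.0 in Xu142, a log2 ratio of 2.07 ± 0.54. Another gene with that protein name, Gh_D12G056000, went the other way. It had a mean of 5.40 in Xu142fl against 665 in Xu142, a log2 ratio of -6.94. The Expansin-like B1 genes and Gh_A03G210200 were thus higher in Xu142fl, where the cluster genes were lower, but a shared protein name did not mean a shared direction.

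Markers of other tissues could be counted only where listed, so a marker that is not listed cannot be read as absent. Of all listed genes, 393 of 872 at -1 DPA, 864 of 1366 at 0 DPA and 7288 of 10793 at 1 DPA were lower in Xu142fl. A count of markers near that share shows no more than the lean of all listed genes. Ovule identity genes, searched as the check of the labelled tissue, were listed only at 1 DPA. There 4 were higher and 1 lower in Xu142fl, or 5 and 0 with TMM or DESeq2 size factors, and their summed level ran from 5215 to 6631 normalised reads in Xu142fl libraries and from 4631 to 4661 in Xu142 libraries. Photosynthesis genes were lower for 10 of 10 at -1 DPA, 10 of 10 at 0 DPA and 28 of 42 at 1 DPA (9 of 10 at 0 DPA and 26 of 42 at 1 DPA with DESeq2 size factors). Their summed level at 1 DPA ran from 479 to 906 in Xu142fl and from 1369 to 1459 in Xu142. Pollen and anther matches were lower for 3 of 7, 11 of 12 and 50 of 69 on the 3 days (3, 10 and 48 with DESeq2 size factors), and both cluster expansins are among them at 0 and 1 DPA through a protein domain named after pollen allergens. Of 6 seed storage matches at 1 DPA, 5 were lower, with sums from 146 to 162 in Xu142fl and from 909 to 1476 in Xu142. The part of these other cell types in the cluster's differences was not tested.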

How the data were processed

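Total RNA of ovules was sequenced on an Illumina platform, per the labels' protocols, in 18 libraries, 3 for each of 2 genotypes on 3 days. Each of the 3 deposited tables holds the genes called on 1 day, with 6 library columns of signal values (the authors' scaled read counts per gene), a deposited log2 fold change (Xu142 over Xu142fl) and deposited p-values with their adjusted p-values, per the file headers. The sources used here do not give the aligner, genome build, counting or strand. All listed values are whole multiples of 1 step per library (tolerance 0.001), from which reads were recovered. The numbers of genes tested, 58161, 57326 and 61474 at -1, 0 and 1 DPA, were recovered from the deposited p-values, their ranks and adjusted p-values.

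The authors' calls are the main result, since the tables hold called genes only. Log2 ratios are those of group means, with SEs from the library SDs. Alternatives refitted the recovered reads with edgeR 4.0.16 (quasi-likelihood), limma 3.58.1 (pseudocounts 1 and 0.1) and DESeq2 1.42.0, run in R 4.3.3. P-values were adjusted by the Benjamini-Hochberg method as if all genes tested by the authors were in the table. The spread was then estimated from called genes alone. Shares were tested with exact permutation tests, and intervals are exact binomial or conditional binomial at 95%. With counts of 0, 3 reads were taken as the limit.

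The 6 genes, the search lists and the tests were chosen with earlier results of these data known. Named genes are the 6, the 3 genes most alike to each, listed neighbours within 100 kb, and the 3 largest and 3 smallest ratios at 1 DPA among other search matches reaching 100 normalised reads. The counterpart at rank 4, the next most abundant family members and family members elsewhere on A10 and D10 were added after their values were seen. So was Gh_D12G056000, which shares its protein name with Gh_A03G210200. No sequence is shown because 0 of the identifiers could be matched to the RefSeq annotation.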

Additional observations from a re-analysis of the deposited data

How the results depend on the processing

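Called members were 3, 5 and 6 at -1, 0 and 1 DPA, of 872, 1366 and 10793 called genes. The settings below change the members called at 0 and 1 DPA, and the calls over all genes on all 3 days. At 0 DPA 3 members were called by edgeR with TMM factors from the table, by DESeq2 with its own size factors, and by limma with a pseudocount of 1 or 0.1, 4 by edgeR with the authors' factors and 5 by DESeq2 with them. Over all genes at 0 DPA edgeR with TMM factors called 804 (501 higher in Xu142fl), DESeq2 with its size factors 808 (502 higher) and limma with 0.1 added 522, beside 502 higher and 864 lower in the authors' calls. At 1 DPA TMM gave 5916 and DESeq2 size factors 5991 (3505 higher each, as in the authors' calls) and 5 members. At -1 DPA DESeq2 size factors gave 308 higher and 393 lower, beside 479 higher and 393 lower. Those factors come from called genes alone and moved log2 ratios of Xu142fl over Xu142 by a mean of -0.18, 1.11 and 1.20 (TMM) and -1.11, 1.56 and 1.24 (DESeq2) on the 3 days. The median log2 ratio of the listed members became -1.51, -2.53 and -7.49 with TMM and -2.44, -2.02 and -7.46 with DESeq2 size factors. All 14 entries stayed below 0 under both, the closest at -0.01 (Gh_A10G149700 at 0 DPA, DESeq2 size factors). Of the 14, 11 passed an adjusted p of 0.05 in all 13 refits. The choice of called genes largely fixed this, so it is no test of the members. Of all listed genes, edgeR with the authors' factors called 100%, 83.7% and 93.9% on the 3 days. How many of them passed all 13 refits was not counted.

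Leaving out 1 library at a time, members called stayed at 3 to 3 (-1 DPA), ranged from 3 to 5 (0 DPA) and stayed at 6 to 6 (1 DPA). The 3 at 0 DPA came without Xu142fl replicate 2 or Xu142 replicate 2. All calls ranged from 858 to 872, 688 to 1016 and 8350 to 10241 on the 3 days. The 0 DPA count was 765 without Xu142fl replicate 2, 798 without Xu142fl replicate 3, 857 without Xu142 replicate 1 and 688 without Xu142 replicate 2. Members' medians ranged from -1.39 to -1.28, -4.07 to -3.36 and -8.83 to -8.60. In Xu142 the A10 share changed between days by 5.24 to 7.08 points for the expansins, 0.394 to 1.29 for the sum of 2 A10 and 1 D10 lipid-transfer genes, 11.1 to 15.7 for the outer pair and -10.3 to -2.77 for the inner pair. The expansin share of member reads, -2.91 points, ranged from -6.82 to 2.53, and it turned to 0.530 with summed reads, 0.375 without Xu142 replicate 1 at 1 DPA and 2.53 without Xu142 replicate 3 at 0 DPA. The cause was not tested.

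Replicate numbers were not taken as pairing the genotypes. Deviations of libraries with the same number correlated at 0.00598 to 0.0398, 0.0967 to 0.189 and -0.0203 to 0.0604 on the 3 days. Those with different numbers correlated at -0.0393 to 0.0174, -0.144 to 0.0172 and -0.115 to 0.125. At 0 DPA all same-number values thus lay above the others. On the 3 days 4, 6 and 3 of 6 libraries correlated best with their own number. With a replicate block, edgeR called 872, 983 and 10249 genes, beside 872, 1144 and 10130 without it, and 4 members at 0 DPA in both, but not the same 4. The block ended the call of Gh_A10G150000 (edgeR adjusted p = 0.0665, beside 0.0121) and added that of Gh_A10G149700 (0.0149, beside 0.0577). The deposited tables carry no depth beyond listed genes, so members not listed on a day could not be analysed there.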
